A study of Homo sapiens with 60 samples.

Results

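Transcripts of 9 carbonyl and quinone detoxification genes were followed in A549 cells: the aldo-keto reductases AKR1B1, AKR1B10, AKR1C1, AKR1C2 and AKR1C3, the aldehyde dehydrogenase ALDH1A1, the carbonyl reductase CBR1, the quinone reductase NQO1 and the alkenal reductase PTGR1. The genes were chosen by name as abundant detoxification enzymes of this line, and all 9 were found among the 60675 genes of the expression table. A549 is an established line from a human non-small cell lung carcinoma. The 60 libraries formed 20 groups of 3. The control group, called Vehicle, was treated with dimethyl sulfoxide, at 0.1% by the sample labels and at 2% by the design text of the series. A further group received 10 µM Wortmannin, an inhibitor of phosphoinositide 3-kinases, as the positive control. The other 18 groups were given 1 of 6 herbal drugs as an aqueous extract, at doses of 500, 100 or 20 µg/mL: Liriopis seu Ophiopogonis Tuber, Schisandrae Fructus, Longan Arillus, Zizyphi Semen, Polygalae Radix or Aucklandiae Radix, each called by the first word of the name. All groups were harvested after 24 h. The design text states that a lower dose series was used for extracts that were toxic at the highest dose, and the doses printed here are those of the labels. No label says that the 3 libraries of a group came from separate cultures, so the scatter among libraries may be technical. Each p-value rests on an estimate of that scatter shared by all libraries of a fit, and not on the 3 libraries of a group alone.

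Aldo-keto reductases are soluble enzymes that use NADPH to reduce aldehydes and ketones to alcohols, and they act on sugars, steroids, prostaglandins, retinal and lipid peroxidation products. Short-chain reductases such as CBR1 and the flavoprotein NQO1 do the same for ketones and quinones, while aldehyde dehydrogenases oxidise aldehydes to acids and draw on NAD or NADP. Many of these genes are known targets of the transcription factor NRF2, which the adaptor KEAP1 marks for degradation, and A549 is known to carry a KEAP1 mutation and to express them at a high level without any inducer.

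Library totals ranged from 17.72 M to 30.64 M expected counts with a median of 24.64 M, and the smallest count of any of the 9 genes in any library was 2024, for CBR1. The keratins KRT7, KRT8 and KRT18, markers of epithelium, had medians of 2197, 3660 and 2787 CPM (counts relative to the library total, in parts per M counts). KRT19, CDH1 and EPCAM, the other epithelial markers, were far lower, at medians of 28.5, 31.6 and 4.86 CPM. The epithelial sums given below are therefore nearly all KRT7, KRT8 and KRT18. The CPM of these and the following cell markers, and of their sums, were not scaled with TMM factors. The CPM of all other genes were. Of the markers of other cells, COL1A2, DCN, VWF, PTPRC, CD3E and HBB had medians of 0 CPM, and LUM, PECAM1 and CDH5 medians of 0.508, 0.0397 and 0.0945 CPM. The fibroblast marker COL1A1 and the macrophage marker CD68 were above EPCAM, with medians of 29 and 11 CPM. All 3 libraries of Polygalae at 20 µg/mL and replicates 1 and 3 of Liriopis at 500 µg/mL stood apart from the rest of their groups. Each library was set against the mean of the other 2 libraries of its group, over genes with a mean log2 CPM above 4. The median absolute log2 deviation was 0.0787 to 0.15 in these libraries. It was 0.064 in the next library, with a median of 0.0441 over the 60 libraries. Polygalae 20 µg/mL replicate 1 had the value of 0.15. By the library names, Vehicle formed a set of its own (A1), as did Wortmannin (1), and the extracts fell into sets 2 (Liriopis and Schisandrae), 3 (Longan and Zizyphi) and 4 (Polygalae and Aucklandiae). In a comparison with Vehicle the treatment and the library set therefore cannot be told apart. By contrast, the dose series of an extract and the comparison of the extracts of 1 set stay within a set. The labels give a dimethyl sulfoxide content for Vehicle alone. A difference in solvent therefore cannot be told apart from the treatment in comparisons with Vehicle. In whole-culture RNA, fewer cells that carry a transcript and less of it per cell cannot be told apart either.

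The 3 AKR1C genes stand side by side on chromosome 10 and are so alike that their reads can be confused, so their sequences are shown first. The coding regions of AKR1C1, AKR1C2 and AKR1C3 were each 969 bases long without the stop codon in the GENCODE 29 transcripts. AKR1C1 differed from AKR1C2 at 19 positions (98% identity) and from AKR1C3 at 83 (91.4%). The 90 bases of the coding region with the most differences between AKR1C1 and AKR1C2 were bases 73 to 162. They are printed with each base that differs from AKR1C2 in capitals, 10 in AKR1C1 and 17 in AKR1C3.
AKR1C2: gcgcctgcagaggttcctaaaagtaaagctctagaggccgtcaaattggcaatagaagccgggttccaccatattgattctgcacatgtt
AKR1C1: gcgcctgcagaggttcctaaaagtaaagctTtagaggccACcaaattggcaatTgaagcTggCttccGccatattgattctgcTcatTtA
AKR1C3: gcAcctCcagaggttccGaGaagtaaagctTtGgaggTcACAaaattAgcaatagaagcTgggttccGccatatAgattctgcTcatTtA

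At the other end of the coding region, AKR1C1 and AKR1C2 were identical over 186 bases, from base 784 to base 969. The first 120 bases of that run, to base 903, are printed with AKR1C3, which had 5 differences there, in capitals.
AKR1C1: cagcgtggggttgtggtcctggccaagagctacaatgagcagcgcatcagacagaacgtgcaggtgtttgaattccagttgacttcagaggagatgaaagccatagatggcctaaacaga
AKR1C2: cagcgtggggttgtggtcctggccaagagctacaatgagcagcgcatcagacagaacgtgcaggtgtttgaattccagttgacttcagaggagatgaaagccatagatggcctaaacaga
AKR1C3: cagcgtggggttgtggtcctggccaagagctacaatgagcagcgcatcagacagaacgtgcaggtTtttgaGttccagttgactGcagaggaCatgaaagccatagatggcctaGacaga

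A read of 100 bases placed at random in these coding regions matched another AKR1C gene without a mismatch in 20.7% of positions for AKR1C1, 26.4% for AKR1C2 and 9.77% for AKR1C3. RSEM divides such reads by a model, so the separate levels of the AKR1C genes are estimates. The error of that division was not measured. The libraries were sequenced as read pairs, and neither pairs nor the transcript parts outside the coding regions were scored. The shares above therefore hold for single reads of the coding regions only. The fourth gene of the cluster, AKR1C4, had a median of 10 counts and was at most 24. Of the other near copies, AKR1B15, the neighbour of AKR1B10 on chromosome 7, had a median of 395 counts and the pseudogene AKR1B10P1 a median of 100.

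The likeness of AKR1C1 and AKR1C2 extended upstream of the genes. In the RefSeq sequences of build GRCh38.p14, the 250 bases before their start sites shared an identical run of 245 bases, although the genes lie on opposite strands. The parts of these windows outside the GENCODE exons of each gene are shown, for AKR1C1 chr10:4963165-4963252 on the plus strand and for AKR1C2 chr10:5004024-5004107 on the minus strand, with the bases of AKR1C1 that the AKR1C2 window lacks in capitals.
AKR1C1: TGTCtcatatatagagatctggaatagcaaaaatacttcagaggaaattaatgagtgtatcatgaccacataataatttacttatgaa
AKR1C2: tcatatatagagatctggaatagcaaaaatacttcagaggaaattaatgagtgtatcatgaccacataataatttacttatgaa

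The windows before the 2 start sites listed for AKR1C3 matched that of AKR1C2 at 70.3% and 70.9% of aligned positions. The antioxidant response element, the motif bound by NRF2 with small MAF proteins, was searched as TGACNNNGC on both strands of the 300 bases around each start. It was found in 13.3% of 35116 windows of all genes and in 1 of 10 windows of the 8 genes that had one. The match lay in CBR1, at 159 to 151 bases before the RefSeq start, and stands in capitals in chr21:36069774-36069940 (plus strand), the part of the window outside the CBR1 exons.
CBR1: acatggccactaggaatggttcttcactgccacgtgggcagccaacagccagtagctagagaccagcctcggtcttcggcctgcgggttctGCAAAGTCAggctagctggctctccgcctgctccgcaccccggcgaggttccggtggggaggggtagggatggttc

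The match reads TGACTTTGC on the minus strand. Such a match describes letters in a short window and says nothing of binding.

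The 9 genes together gave 1.36% to 1.67% of all counts of a library, with a median of 1.52%. Per kilobase of coding sequence, the Vehicle mean was highest for ALDH1A1, at 4347 CPM per kilobase, followed by AKR1B10 at 2843, AKR1C2 at 2338, NQO1 at 1871, AKR1C3 at 771, AKR1B1 at 589, AKR1C1 at 340, PTGR1 at 319 and CBR1 at 141 CPM per kilobase. The same levels per kilobase of the longest principal transcript kept that order except for AKR1C1, which moved to the last place with 49.2 CPM per kilobase because its longest transcript has 6705 bases. ALDH1A1, which oxidises retinal and lipid aldehydes, ranked 9 among all genes by mean CPM, and even CBR1 ranked 1611. ALDH1A1 lies on chromosome 9 (72900662 to 73080442, minus strand, GENCODE 29), as does PTGR1 (111549722 to 111599893, minus strand). AKR1B1 (134442350 to 134459284, minus strand) and AKR1B10 (134527592 to 134541408, plus strand) are neighbours on chromosome 7, NQO1 lies on chromosome 16 (69706996 to 69726951, minus strand) and CBR1 on chromosome 21 (36069941 to 36073166, plus strand). On chromosome 10, AKR1C1 spans 4963253 to 4983283 on the plus strand, AKR1C2 4987400 to 5018031 on the minus strand and AKR1C3 5035354 to 5107686 on the plus strand. Exons of NQO1 and CBR1 overlap genes of the other strand, AC092115.2 with 168 to 340 counts and AP000688.1 with at most 9, so that a part of their reads could be shared if counting ignored strand.

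Across the 20 groups these levels moved little. The ratio of the highest to the lowest group mean was 1.36 for ALDH1A1, 1.31 for AKR1B1, 1.3 for AKR1B10, 1.29 for AKR1C3 and PTGR1, 1.23 for CBR1, 1.22 for AKR1C1, 1.20 for AKR1C2 and 1.16 for NQO1. In the order of the groups, ALDH1A1 was highest in Wortmannin and lowest in Polygalae and then Aucklandiae at 500 µg/mL, and each of these 3 groups was separate from its neighbour in the order. AKR1B1, AKR1B10, AKR1C2, AKR1C3, CBR1 and PTGR1 were lowest in Wortmannin, without overlap with the next group, and AKR1C1 was lowest there with overlap. At the upper end the first and second group overlapped for every gene except ALDH1A1. Of the 171 comparisons of a gene with Vehicle (9 genes in 19 treated groups), 18 passed the edgeR quasi-likelihood test. The threshold was an adjusted p below 0.05, and the largest change was 1.27-fold. Over the 19 comparisons, the share of all genes that passed ranged from 0.00576% (Liriopis at 500 and 100 µg/mL) to 37.4% (Wortmannin).

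**Figure D1:**
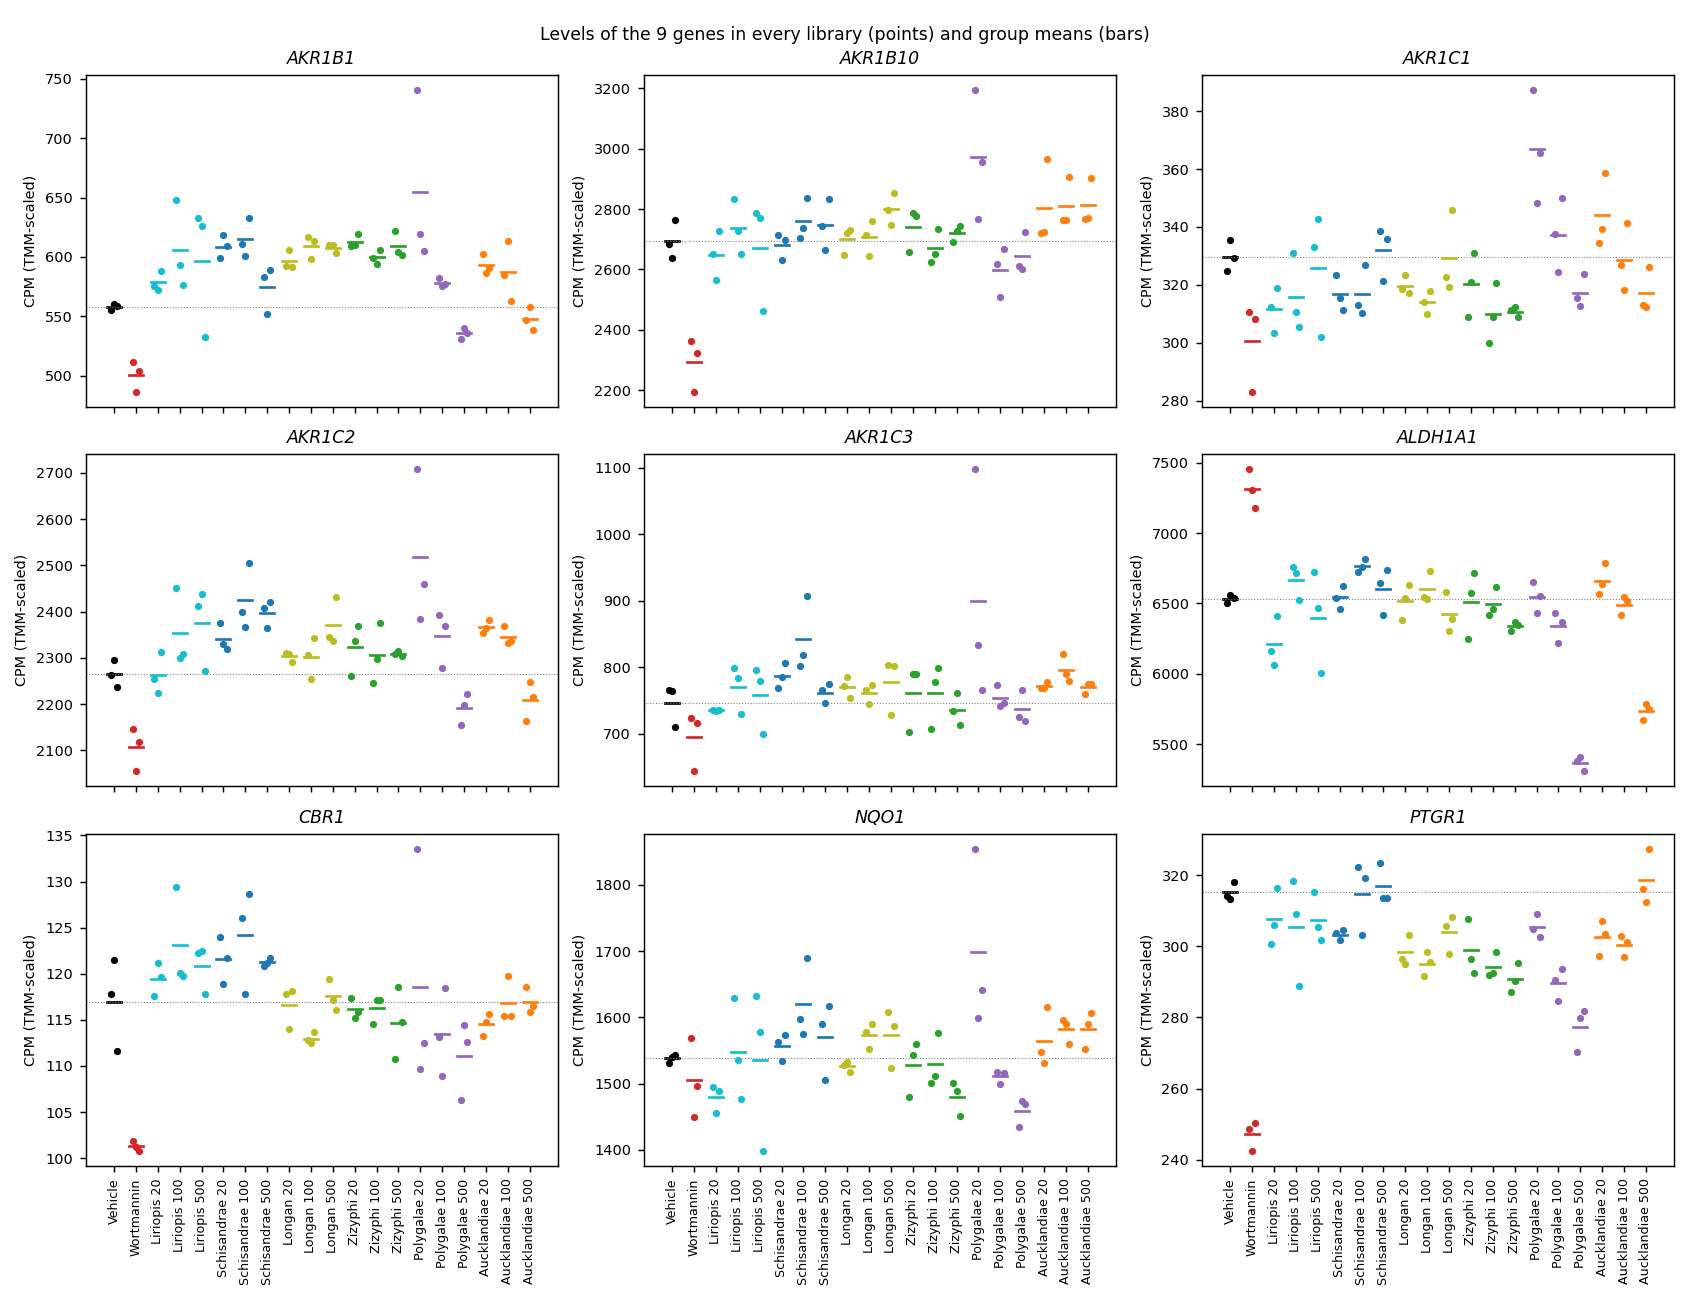
CPM of each gene (vertical axes, each with its own range and not starting at 0) in every library (points) of the 20 groups (horizontal axis), with group means as bars and the Vehicle mean as a dotted line. The Wortmannin libraries lie below Vehicle for PTGR1 and AKR1B10 and above it for ALDH1A1, and 1 library of Polygalae at 20 µg/mL lies far above the others for AKR1C3, at 1098 CPM.

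AKR1C1 and AKR1C2 kept a narrow ratio. AKR1C1 had between 13.04% and 15.06% of the expected count of AKR1C2 in the 60 libraries, with a mean of 13.93% ± 0.496 (SD). The ratio went with the library set: group means were 13.07% to 13.84% in set 2 and 13.44% to 13.89% in set 3, and 14.01% to 14.59% in set 4, 14.27% in Wortmannin and 14.56% in Vehicle. The ranges of single libraries overlapped, since set 3 reached 14.22% and set 4 began at 13.65%. AKR1C3, an enzyme of androgen and prostaglandin metabolism, was more variable against AKR1C2, at 30.79% to 40.53%, and the highest value was that of Polygalae 20 µg/mL. Whether the ratio of AKR1C1 to AKR1C2 follows transcription or the division of shared reads was not tested.

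**Figure D2:**
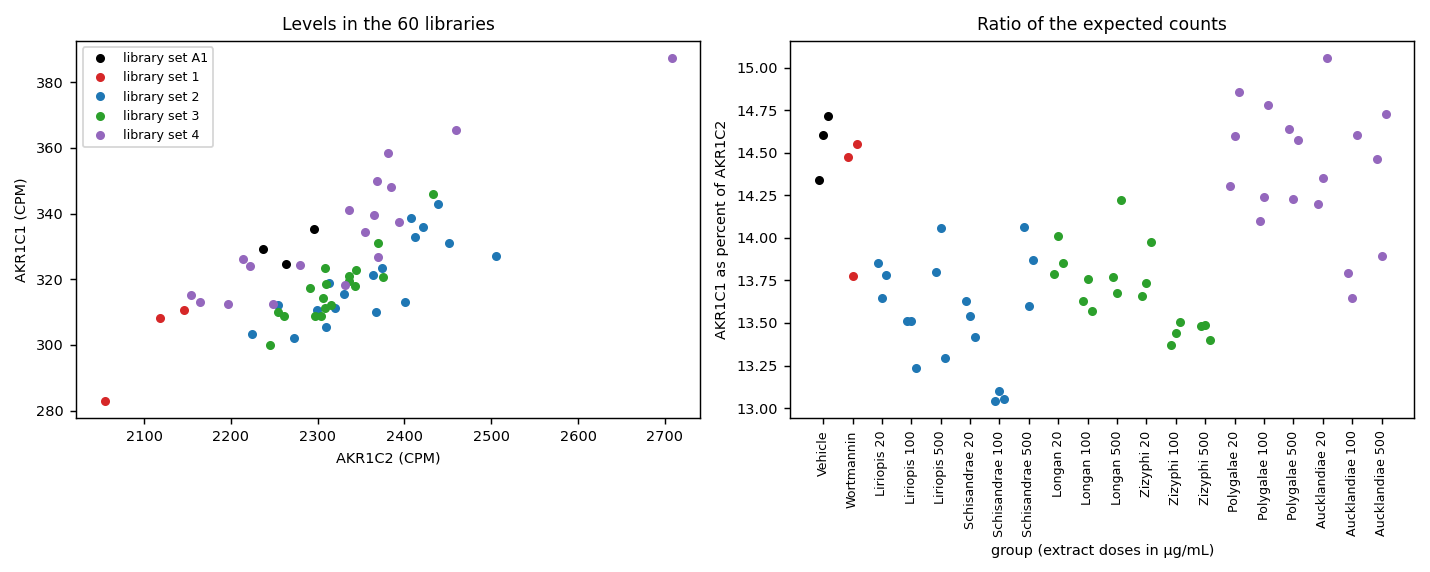
Left, CPM of AKR1C1 against CPM of AKR1C2 in the 60 libraries, coloured by library set. Right, AKR1C1 as a percentage of AKR1C2 (vertical axis, not starting at 0) in each library of the 20 groups; the group means of sets 2 and 3 do not exceed 13.89%, and those of the other sets are at least 14.01%.

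Wortmannin gave the broadest change. PTGR1, which reduces the double bond of alkenals such as hydroxynonenal and inactivates leukotriene B, had 314, 313 and 318 CPM in Vehicle and 249, 243 and 251 CPM in Wortmannin. All Wortmannin libraries were well below all Vehicle libraries, and PTGR1 fell by 0.35 on the log2 scale and by 21.5% (SE of the log2 change 0.0286, adjusted p = 1.64e-15). AKR1B10, a retinal and lipid aldehyde reductase often raised in lung carcinoma, had 2684, 2637 and 2765 CPM in Vehicle and 2363, 2195 and 2322 CPM in Wortmannin, again without overlap. It fell by 0.23 (SE 0.0394, adjusted p = 2.21e-06). CBR1, which reduces quinones, prostaglandins and anthracyclines, had 118, 122 and 112 CPM in Vehicle and 102, 101 and 101 CPM in Wortmannin, and fell by 0.21 (SE 0.0406, adjusted p = 3.10e-05).

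Smaller decreases were found for the other reductases that passed. AKR1B1, the aldose reductase of the polyol pathway, had 556, 560 and 559 CPM in Vehicle and 511, 486 and 504 CPM in Wortmannin, without overlap, and fell by 10.3%, a log2 change of -0.16 (adjusted p = 0.00347). AKR1C1 and AKR1C2, which act on progesterone and on dihydrotestosterone, changed by -0.13 (adjusted p = 0.00523) and -0.11 (adjusted p = 0.00657) on the log2 scale. These 2 calls rested on Wortmannin replicate 2, the lowest library, without which the adjusted p were 0.0936 and 0.0519. The summed counts of AKR1C1 to AKR1C4, which do not depend on how their reads were divided, changed by -0.11 (SE 0.0372, adjusted p = 0.0177). That call was lost without Wortmannin replicate 2 (-0.08, adjusted p = 0.144) and without Vehicle replicate 1 or 2 (adjusted p = 0.0561 and 0.0812). For AKR1C3 the log2 change was -0.10 (95% interval -0.24 to 0.04, adjusted p = 0.25).

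ALDH1A1 went the other way. It had 6505, 6560 and 6537 CPM in Vehicle and 7453, 7306 and 7177 CPM in Wortmannin, all above the controls, and rose by 0.16 on the log2 scale (11.9%, SE 0.0292, adjusted p = 7.17e-06). NQO1, the classical NRF2 target that reduces quinones by a pair of electrons, had 1532, 1540 and 1543 CPM in Vehicle and 1568, 1450 and 1497 CPM in Wortmannin. These groups overlapped, and its log2 change was -0.03 (95% interval -0.11 to 0.05, adjusted p = 0.576). In all, 7 of the 9 genes passed with Wortmannin, 6 lower and 1 higher, where 37.4% of the 17368 genes tested passed (19.4% lower and 18% higher). Their median log2 change was -0.13, beside 0.01 for all genes tested. The summed blood cell markers, nearly all CD68, were at 16.4 to 19.7 CPM in Wortmannin against 11.3 to 12.1 CPM in Vehicle. PTPRC, CD3E and HBB had medians of 0 CPM over all libraries. Without TMM scaling, the epithelial sum was at 8532 to 8617 CPM, within the Vehicle range of 8252 to 8629 CPM.

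**Figure D3:**
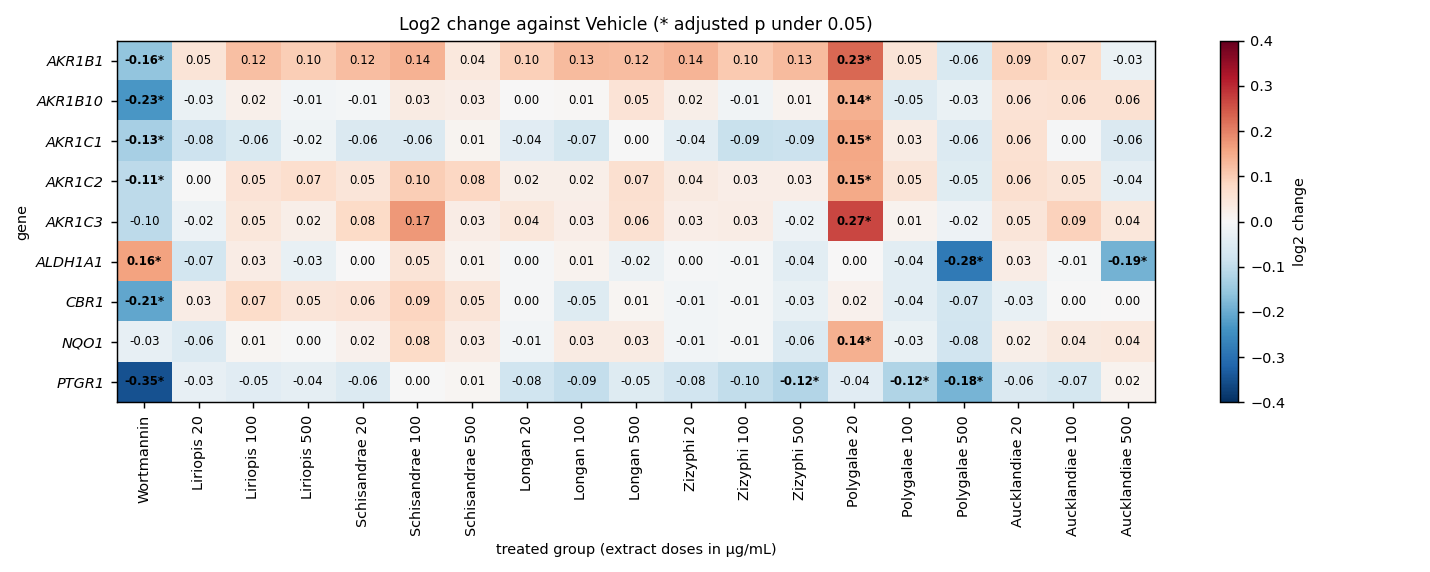
Log2 change against Vehicle (colour and printed value) of the 9 genes (rows) in the 19 treated groups (columns), with an asterisk where the adjusted p was below 0.05. The asterisks lie in Wortmannin, in the Polygalae groups and, once each, in Zizyphi and Aucklandiae at 500 µg/mL.

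With Polygalae at 500 µg/mL, 2 of the 9 genes passed against Vehicle, where 19.9% of all genes did (9.48% lower), and both fell. ALDH1A1 had 5382, 5413 and 5308 CPM, below each Vehicle library (6505 to 6560 CPM), and fell by 0.28 on the log2 scale (a change of -17.8%, SE 0.0292, adjusted p = 1.18e-11). PTGR1 had 270, 280 and 282 CPM against 313 to 318 CPM in Vehicle and fell by 0.18 (a change of -12%, SE 0.0287, adjusted p = 8.91e-07). For the other 7 genes the log2 changes lay between -0.08 (NQO1, adjusted p = 0.181) and -0.02 (AKR1C3, adjusted p = 0.894). The median of the 9 genes was -0.06, beside 0.00 over all genes tested. The same libraries had a lower sum of the 6 epithelial markers, at 7026 to 7385 CPM against 8252 to 8629 CPM in Vehicle. They had a higher sum of the 4 blood cell markers, nearly all of it CD68, at 21.8 to 24.3 CPM against 11.3 to 12.1 CPM. The part of the epithelial and CD68 signal in these changes was not tested.

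Over the Polygalae doses, a slope was fitted within the 9 libraries of that extract as the log2 change per dose step, from 20 to 100 or from 100 to 500 µg/mL. For 3 of the 9 genes the slope passed, all downward, where 5.03% of all genes passed (2.03% downward). ALDH1A1 fell by 0.14 per step (SE 0.0304, adjusted p = 0.013), with group means of 6543 ± 110, 6339 ± 110 and 5368 ± 54 CPM (SD, n = 3 each) from the lowest to the highest dose. AKR1B1 fell by 0.15 per step (adjusted p = 0.0217), from 655 ± 74.7 to 578 ± 3.61 and 536 ± 4.62 CPM, and AKR1C1 by 0.11 (adjusted p = 0.0304), from 367 ± 19.7 to 337 ± 12.8 and 317 ± 5.90 CPM. PTGR1 declined stepwise in its means, with 306 ± 3.24, 290 ± 4.50 and 277 ± 6.22 CPM, and its slope of -0.07 missed the threshold (adjusted p = 0.0803). None of the 3 slopes was called without any 1 of the 3 libraries at 500 µg/mL, with adjusted p between 0.0656 and 0.105. The AKR1C1 slope was also lost without Polygalae 100 µg/mL replicate 1 (adjusted p = 0.0525), without Polygalae 20 µg/mL replicate 3 (0.0635) and without replicates 1 and 3 at 20 µg/mL (0.0638). Without the first library at 20 µg/mL, which stood apart, 6 slopes were called, but the share of all genes called in that fit was not counted.

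At the intermediate Polygalae dose of 100 µg/mL, 1 of the 9 genes passed against Vehicle (12.8% of all genes, 5.27% lower). PTGR1 had 291, 285 and 294 CPM, below all 3 Vehicle libraries, and fell by 0.12 (SE 0.0286, adjusted p = 0.00164). ALDH1A1, with 6433, 6219 and 6366 CPM, was also below every Vehicle library, and its log2 change was -0.04 (adjusted p = 0.376).

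Aucklandiae at 500 µg/mL lowered 1 of the 9 genes, where 4.93% of all genes passed (2.69% lower). ALDH1A1 had 5672, 5788 and 5748 CPM and fell by 0.19 on the log2 scale (a change of -12.2%, SE 0.0292, adjusted p = 1.03e-05). The epithelial marker sum was at 7818 to 8025 CPM in this group, also below Vehicle. The blood cell sum, nearly all CD68, was at 7.38 to 9.47 CPM against 11.3 to 12.1 CPM. The part of both sums in the change was not tested. ALDH1A1 also fell with the Aucklandiae dose, by 0.11 per step (SE 0.0189, adjusted p = 0.00182), from 6663 ± 110 over 6492 ± 67.7 to 5736 ± 59 CPM, and was the 1 of 9 genes to pass that test (0.967% of all genes, 0.749% downward). With a replicate term in the model AKR1C1 passed as well (-0.06 per step, adjusted p = 0.0181), and without Aucklandiae 100 µg/mL replicate 2 AKR1B1 did (adjusted p = 0.0356). PTGR1 had 316, 312 and 327 CPM at 500 µg/mL, overlapping the Vehicle range, and a log2 change of 0.02 (95% interval -0.04 to 0.07).

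**Figure D4:**
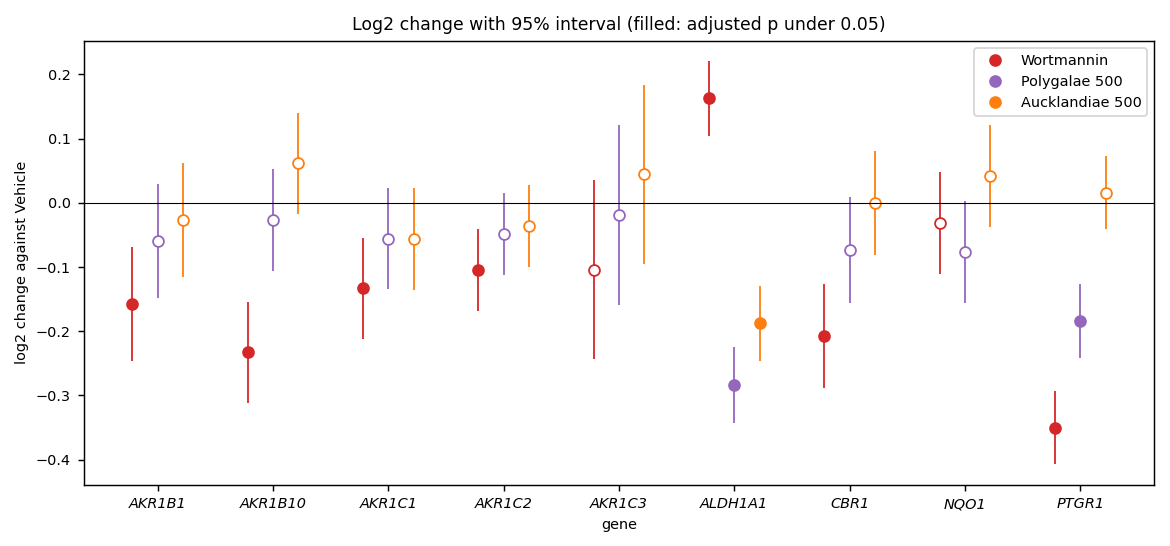
Log2 change against Vehicle with its 95% interval (vertical axis) for each gene (horizontal axis) in Wortmannin, Polygalae 500 µg/mL and Aucklandiae 500 µg/mL, filled where the adjusted p was below 0.05. ALDH1A1 is at 0.16 in Wortmannin and at -0.28 and -0.19 in the extracts.

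Polygalae and Aucklandiae belong to 1 library set, so they were also compared directly at 500 µg/mL. Here 3 of the 9 genes passed, all lower in Polygalae, where 15.2% of all genes passed (7.04% lower). The marker sums differed between the same groups. The epithelial sum was at 7026 to 7385 CPM in Polygalae and 7818 to 8025 CPM in Aucklandiae. The blood cell sum, nearly all CD68, was at 21.8 to 24.3 CPM in Polygalae and 7.38 to 9.47 CPM in Aucklandiae. The part of both sums in the differences was not tested. PTGR1 had 270, 280 and 282 CPM in Polygalae and 316, 312 and 327 CPM in Aucklandiae, a log2 difference of -0.20 (SE 0.0287, adjusted p = 1.62e-07). NQO1 had 1435, 1473 and 1469 CPM in Polygalae and 1552, 1590 and 1607 CPM in Aucklandiae, which did not overlap, with a difference of -0.12 (adjusted p = 0.0329). For ALDH1A1, which fell in both extracts against Vehicle, Polygalae was lower by -0.10 (adjusted p = 0.016). PTGR1 was called in every alternative, whereas NQO1 was lost without Polygalae 500 µg/mL replicate 1, 2 or 3 or Aucklandiae 500 µg/mL replicate 2 or 3 (adjusted p up to 0.125). ALDH1A1 was lost without Polygalae replicate 3 or Aucklandiae replicate 2 or 3 and without the filter on low counts (adjusted p 0.0506 to 0.126). Aucklandiae and Polygalae were not called different for any of the 9 genes at 100 µg/mL (7.43% of all genes) or 20 µg/mL (3.89%), although 1 and 6 of the 9 had an unadjusted p below 0.05 in edgeR. DESeq2 was not run for these lower doses, and the share of all genes with an unadjusted p below 0.05 was not counted.

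**Figure D5:**
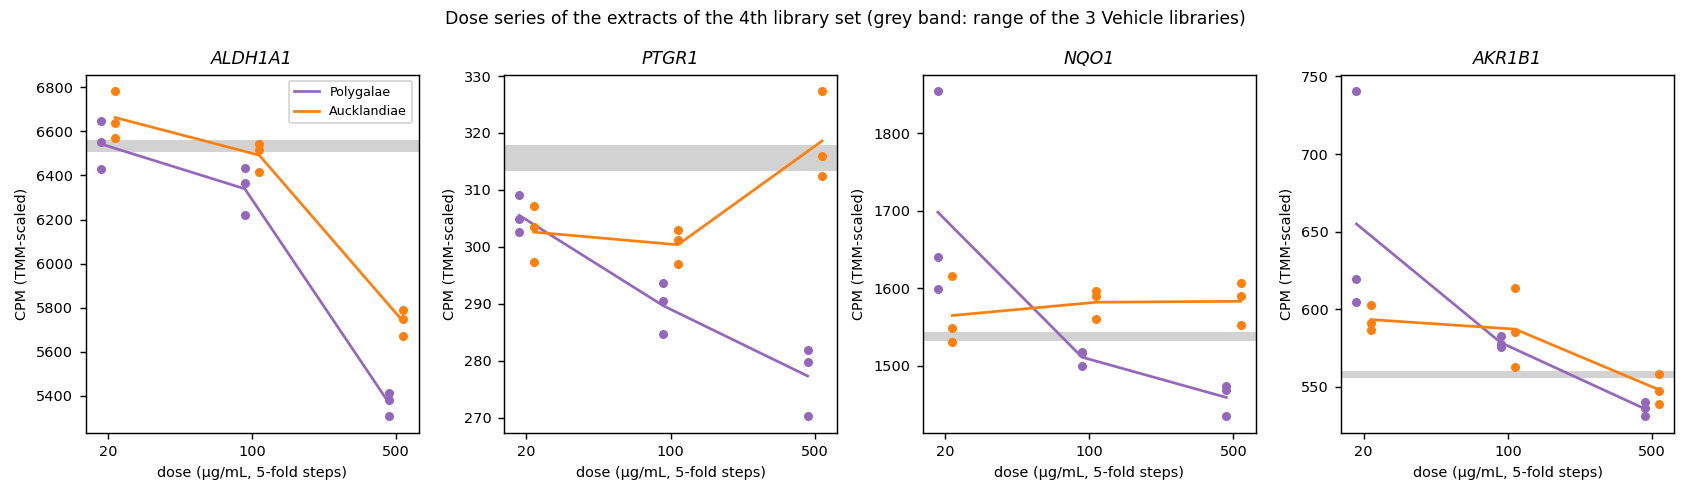
CPM of ALDH1A1, PTGR1, NQO1 and AKR1B1 (vertical axes, not starting at 0) at 20, 100 and 500 µg/mL (horizontal axis) of Polygalae and Aucklandiae, with points for libraries, lines through group means and a grey band for the range of the Vehicle libraries. ALDH1A1 falls at 500 µg/mL of both extracts, while PTGR1 lies at 270 to 282 CPM in Polygalae and at 312 to 327 CPM in Aucklandiae.

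At the lowest Polygalae dose, 20 µg/mL, the called changes were upward and most rested on 1 library. Here 6 of the 9 genes passed, all upward, where 12.1% of all genes passed (6.59% upward). Without TMM scaling, the epithelial marker sum was at 8847 to 9599 CPM in these libraries, above the Vehicle range of 8252 to 8629 CPM. The blood cell sum, nearly all CD68, was at 6.85 to 11.3 CPM against 11.3 to 12.1 CPM in Vehicle. The part of both sums in these changes was not tested. AKR1C3 had 1098, 834 and 766 CPM in the 3 libraries against 766, 764 and 711 CPM in Vehicle, and rose by 0.27 (SE 0.0691, adjusted p = 0.00835). AKR1B1 had 741, 619 and 605 CPM and rose by 0.23 (SE 0.0444, adjusted p = 3.92e-04). In both genes replicate 1 was far above the other 2 libraries. AKR1C1, AKR1C2, NQO1 and AKR1B10 rose by 0.15, 0.15, 0.14 and 0.14 (adjusted p between 9.55e-04 and 0.0121), again with replicate 1 as the highest library. Without that library, 1 of these 6 calls was left, and the changes were 0.10 for AKR1C3 (adjusted p = 0.357), 0.07 for NQO1 (0.292), 0.09 for AKR1B10 (0.22), 0.11 for AKR1C1 (0.1) and 0.10 for AKR1C2 (0.0573). AKR1B1 remained called without it, at a smaller change of 0.13 (adjusted p = 0.039). AKR1C3 was also lost without Vehicle replicate 3 (adjusted p = 0.0545) and AKR1B10 without Vehicle replicate 2 (adjusted p = 0.0654). In a fit of the 6 libraries of these groups alone, the adjusted p of the 6 genes were 0.34 to 0.433. The members of the family with the most similar sequence did not all move alike in replicate 1, in which AKR1C3 reached 40.53% of AKR1C2 while AKR1C1 stayed at 14.3%.

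In the other 13 comparisons none of the 9 genes passed. Of all genes, 0.00576% passed with Liriopis at 500 and at 100 µg/mL and 0.0864% at 20 µg/mL. With Schisandrae 0.478%, 1.4% and 0.196% passed at 500, 100 and 20 µg/mL, and with Longan 0.104%, 0.132% and 0.0173%. Zizyphi at 100 and 20 µg/mL had 0.599% and 0.363%, and Aucklandiae at the same doses 2.04% and 2.99%. Over these 13 comparisons 24 of the 117 tests had an unadjusted p below 0.05 in edgeR, and DESeq2 called 1, PTGR1 with Zizyphi at 100 µg/mL. Without the filter on low counts edgeR called AKR1B1 (0.14, adjusted p = 0.0366, in place of 0.0822) and AKR1C3 (0.17, adjusted p = 0.00249, in place of 0.183) with Schisandrae at 100 µg/mL. With only the 6 libraries compared, AKR1B1 was called upward with Longan at all doses and with Schisandrae and Zizyphi at 100 and 20 µg/mL. PTGR1 was called downward in that fit with Longan and Zizyphi at 100 µg/mL. The dose slopes of Liriopis, Schisandrae, Longan and Zizyphi gave none of 36 calls in edgeR and in DESeq2, with 2 unadjusted p below 0.05, where 0.0461%, 0.0403%, 0.0345% and 0.351% of all genes passed. At 500 µg/mL neither Zizyphi against Longan (0.213% of all genes) nor Schisandrae against Liriopis (0.322%) differed for any of the 9 genes in either tool, with 3 unadjusted p below 0.05 in edgeR. At 100 and 20 µg/mL these pairs gave no call in edgeR either, where 0.0115% of all genes passed for Schisandrae against Liriopis at 20 µg/mL and 0% for the other pairs. Of all 54 tests of extract pairs at the lower doses, Polygalae against Aucklandiae included, 8 had an unadjusted p below 0.05. The share of all genes with an unadjusted p below 0.05 was not counted for any comparison, so these unadjusted counts lack a background.

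Zizyphi at 500 µg/mL changed 1 gene, where 1.81% of all genes passed (0.915% lower). PTGR1 had 287, 290 and 295 CPM, below all Vehicle libraries, and fell by 0.12 (a change of -7.72%, SE 0.0285, adjusted p = 0.0174). The size of this change was stable, from -0.13 to -0.11 over the alternatives, but the call was not. Without Vehicle replicate 1, 2 or 3 or Zizyphi replicate 1 or 2 the adjusted p was 0.0523 to 0.103. Without the filter on low counts it was 0.181. PTGR1 was also lower than Vehicle, without a call in edgeR, at 100 and 20 µg/mL of Zizyphi (-0.10 and -0.08). The same held for Longan, of the same library set, at 500, 100 and 20 µg/mL (-0.05, -0.09 and -0.08). The Zizyphi dose slope of PTGR1 was -0.02 (adjusted p = 0.721). Zizyphi against Longan at 500 µg/mL gave -0.06 (adjusted p = 0.689).

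2 genes were displaced from Vehicle in 1 direction in most treated groups. AKR1B1 had 556, 560 and 559 CPM in Vehicle, the narrowest range of any of its groups, and all 3 libraries were above all 3 Vehicle libraries in 14 of 19 treated groups. Among all genes tested, 1.7% were above in at least as many groups. The AKR1B1 log2 change lay between 0.10 and 0.14 in the Longan and Zizyphi groups, with adjusted p from 0.139 to 0.477, so that none passed. When only the 6 libraries of each comparison entered the fit, 9 of its 19 comparisons passed, 8 upward, in place of 2. The share of all genes that passed in those fits was not counted. PTGR1 was below all Vehicle libraries in 13 of 19 groups, and 2.05% of all genes were below in at least as many. All 19 comparisons share the same 3 Vehicle libraries, which make up set A1 by themselves. These displacements therefore cannot be told apart from a difference between Vehicle and the other groups in library set or in solvent. Within a set, the means of AKR1B1 were 596 to 609 CPM over the Longan doses and 600 to 613 CPM over the Zizyphi doses, and neither slope passed.

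Over the 20 group means, the 9 genes went together to different degrees. The highest correlations of log2 levels (Pearson's r, a description over groups that share library sets and the depth of their libraries) were between CBR1 and PTGR1 (0.888), AKR1C3 and NQO1 (0.874), and AKR1B1 and AKR1C2 (0.865). ALDH1A1 stood apart, with r between -0.274 and 0.299 to the other 8 genes. Within groups, over deviations of the 60 libraries from their group means, ALDH1A1 had r of 0.303 to 0.741 with them except for PTGR1 (0.268). AKR1C1 and AKR1C2 had r of 0.701 between group means and 0.832 within groups. Among genes of at least 10 CPM outside the 9, those with the highest r to ALDH1A1 over the 20 group means were TGFBI (0.884), an extracellular matrix protein, and PRSS23 (0.884), a serine protease. For PTGR1 they were ZNF598 (0.925) and NUP88 (0.917), for CBR1 TRIM28 (0.956) and TUBB4B (0.951), and for NQO1 PPA2 (0.869) and H3-3A (0.856). TRMU had an r of 0.905 to AKR1B10. DPP3 and PPIB were the nearest to AKR1B1 (0.908 and 0.902) and also to AKR1C2 (0.896 and 0.873). For AKR1C1 they were C6orf47 (0.79) and SDHAF1 (0.767), and for AKR1C3 SDHAF1 (0.895) and ROMO1 (0.892).

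Genes around these enzymes were taken from lists by family and pathway, whose counts stand beside the 37.4% of all genes that passed with Wortmannin (18% higher, 19.4% lower) and the 19.9% that passed with Polygalae at 500 µg/mL (10.4% higher, 9.48% lower). Of 18 other aldehyde dehydrogenases, 15 were tested. With Wortmannin 8 of them rose and 3 fell, with a list median of 0.20, and with Polygalae at 500 µg/mL 2 rose and 7 fell, with a median of -0.10. ALDH3A1, an enzyme of cornea, airway and many tumours, at 860 CPM in Vehicle, rose with Wortmannin by 0.20 (adjusted p = 0.0221) and fell with Polygalae by 0.51 (adjusted p = 4.02e-07) and with Zizyphi at 500 µg/mL by 0.41 (adjusted p = 6.02e-04). ALDH2, the mitochondrial enzyme of acetaldehyde oxidation, rose with Wortmannin by 0.13 (adjusted p = 0.0271) and fell with Polygalae by 0.22 (adjusted p = 3.79e-04). ALDH7A1 rose by 0.21 with Wortmannin and fell by 0.18 with Polygalae, as ALDH1A1 did. ALDH1B1 went the opposite way. It fell by 0.21 with Wortmannin (adjusted p = 4.99e-06) and rose by 0.13 with Polygalae (adjusted p = 0.0074). ALDH1L2, a mitochondrial folate enzyme, fell in both, by 0.73 (adjusted p = 1.54e-14) and 0.62 (adjusted p = 3.31e-11), and ALDH1A3, another retinal dehydrogenase, rose in both, by 0.31 and 0.39.

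Of 11 other aldo-keto reductases, 9 were tested, and 3 rose and none fell both with Wortmannin and with Polygalae at 500 µg/mL (list medians of 0.31 and -0.09). With Wortmannin this share of 3 in 9 was near that of all genes. With Polygalae these were AKR1A1, the aldehyde reductase of most tissues (0.31, adjusted p = 7.84e-06), AKR1E2 (0.28, adjusted p = 0.0334) and KCNAB2 (0.78, adjusted p = 3.69e-11), a potassium channel subunit of aldo-keto reductase fold. With Wortmannin they were KCNAB2 (0.39), KCNAB3 (0.49) and AKR1C4 (1.03, adjusted p = 0.0391), the last at no more than 24 counts in any library. Among the other carbonyl and quinone reductases (10 of 11 tested), 5 fell and none rose with Wortmannin, namely DCXR (-0.32), NQO2 (-0.33), ADH5 (-0.15), TXNRD1 (-0.10) and GSR (-0.36), with a list median of -0.10. With Polygalae at 500 µg/mL 3 of these rose (list median 0.04): ADH5 by 0.23 (adjusted p = 4.58e-04), TXNRD1 by 0.20 (adjusted p = 5.12e-06) and GSR by 0.10 (adjusted p = 0.00551). TXNRD1 and GSR regenerate thioredoxin and glutathione with NADPH.

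Of 8 enzymes that supply NADPH, 5 fell and 1 rose with Wortmannin, and 4 fell and 1 rose with Polygalae at 500 µg/mL (list medians of -0.09 and -0.08). Among those that fell with Polygalae were PGD by 0.10, TKT by 0.14 and MTHFD1 by 0.17, while IDH1 rose by 0.25 (adjusted p = 1.51e-09). With Wortmannin ME1 (-0.33), IDH1 (-0.14), MTHFD1 (-0.18), PGD (-0.07) and TKT (-0.10) fell and PGLS rose by 0.52 (adjusted p = 3.25e-12). Of the 8 genes of KEAP1 and NRF2 control, 5 fell with Wortmannin, among them NFE2L2, which encodes NRF2 (-0.14, adjusted p = 4.28e-04), and KEAP1 (-0.16, adjusted p = 0.00161), and BACH1, a repressor at the same elements, rose by 0.25 (list median -0.15). With Polygalae at 500 µg/mL BACH1 (0.41), MAFG (0.29) and MAFF (0.42) rose and MAFK fell by 0.12 (list median 0.10), and NFE2L2 was at 0.06 (adjusted p = 0.257). NFE2L2 fell with Aucklandiae by 0.18 (adjusted p = 3.14e-04) and with Zizyphi by 0.17 (adjusted p = 0.00202), both at 500 µg/mL, and KEAP1 rose with Aucklandiae by 0.17 (adjusted p = 0.00509).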

How the data were processed

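RNA of 60 A549 samples (20 groups of 3) was sequenced with a strand-specific MGIEasy kit as 100-base read pairs, per the labels' protocols. The authors deposited expected counts per gene, that is, estimated counts that need not be whole, and 10.68% of the values were not. Per the submitters' processing notes, the tools were RSEM 1.3.3 and STAR 2.7.3a on build GRCh38, with Trim Galore 0.6.5 and FastQC 0.11.9. Which gene annotation was counted, and whether strand was used, is not given in the sources used here. RSEM divides reads shared by similar genes, which bears on the AKR1C genes.

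The expected counts were rounded to whole numbers, with library totals of 17.72 M to 30.64 M counts. Genes were filtered with filterByExpr over the 20 groups (17368 kept, the 9 genes among them), scaled by TMM and tested with the robust quasi-likelihood test of edgeR 4.0.16 (R 4.3.3, limma 3.58.1), two-sided. The fit took all 60 libraries, or the 9 libraries of an extract for its dose slope. The p-values were adjusted by Benjamini-Hochberg over all genes tested, and a gene was called at an adjusted p below 0.05. Intervals are 95% and not adjusted. Names were matched for 56558 genes from the gene name table and for 497 from GENCODE 29. The 9 genes were all described, and genes of the related lists were named where called in a main comparison, except for some genes that are not reported here. The genes and lists were chosen with earlier results of these data known. The alternatives were RLE scaling, no filter, a replicate block, DESeq2 1.42.0, only the libraries compared, the summed AKR1C counts, a slope in the fit of 60 libraries, each library left out, and, chosen after seeing the data, leaving out 4 of the libraries that stood apart. The scripts were tested on simulated data. Ethanol extracts that the design text names were not analysed here.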

Additional observations from a re-analysis of the deposited data

Results flagged for a closer look

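In the direct comparison of Polygalae with Aucklandiae at 500 µg/mL, the difference between the extracts itself passed the edgeR quasi-likelihood test for 3 of the 9 genes, where 15.2% of all genes passed. The log2 difference was -0.20 for PTGR1 (adjusted p = 1.62e-07), -0.12 for NQO1 (adjusted p = 0.0329) and -0.10 for ALDH1A1 (adjusted p = 0.016), and in each gene all 3 Polygalae libraries were below all 3 Aucklandiae libraries. PTGR1 was called in all 12 alternatives, while NQO1 was lost in 5 of 12 (adjusted p up to 0.125) and ALDH1A1 in 4 of 12 (up to 0.126). Against Vehicle, ALDH1A1 fell in both extracts and PTGR1 fell in Polygalae, while the log2 change of NQO1 was -0.08 in Polygalae (adjusted p = 0.181) and 0.04 in Aucklandiae (adjusted p = 0.627). Both comparisons with Vehicle share the same 3 control libraries.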

How the results depend on the processing

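No value changed its direction. RLE scaling, DESeq2 and the replicate block each kept all 25 called gene values, the fit without the filter on low counts 23 of 25, the fit without 4 of the libraries that stood apart (replicates 1 and 3 of Polygalae 20 and Liriopis 500 µg/mL) 18 of 24, and the fit of only the 6 libraries compared 15 of 21. Leaving out a library kept 129 of 162. The fit without the 4 libraries left 1 library in each of these groups, which was assumed to vary like the other groups. With the replicate number as a block, the count of genes called differed only for the Aucklandiae dose slope (2 in place of 1). No label says that a number marks a shared culture or day, and of 57 pairs of a Vehicle and a same-numbered treated library 6 had deviations correlated over 0.1, so the numbers were not taken as pairs. The mean correlation was 0.0142 for the same number and -0.00705 for others, and within a library set 0.0431 and -0.0216. Of 60 libraries, 35 correlated best with their own number out of 3 numbers, a hint from the data of some sharing.

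For Zizyphi at 500 µg/mL the count of called genes was 0 without the filter, 2 without the 4 libraries and 3 with only the 6 libraries compared, in place of 1. For Longan at 500 µg/mL it was 1 without the 4 libraries and 1 with only the 6 libraries, in place of 0, and for the 12 groups at 100 or 20 µg/mL it was 11 without the 4 libraries, in place of 7. The calls behind that count changed as well. Without the 4 libraries AKR1B10, AKR1C1, AKR1C2, AKR1C3 and NQO1 were no longer called with Polygalae at 20 µg/mL. Other calls appeared, mostly AKR1B1 upward with Liriopis, Schisandrae, Longan or Zizyphi. With only the 6 libraries compared the count was 9, but no call with Polygalae at 20 µg/mL was kept. Apart from PTGR1 with Polygalae at 100 µg/mL, these were AKR1B1 or PTGR1 with Schisandrae, Longan or Zizyphi. The Polygalae slope count was 8 in the fit of 60 libraries, 5 without the filter and 6 with DESeq2, in place of 3. The Aucklandiae slope count was 3 without the filter and 4 with DESeq2, in place of 1. The cause of these differences was not tested. The share of all genes called was not counted in any of the alternatives, so their counts of called genes lack a background.

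With single libraries left out, the counts ranged from 5 to 7 for Wortmannin, 2 to 2 for Polygalae, 1 to 1 for Aucklandiae and 0 to 1 for Zizyphi at 500 µg/mL. They ranged from 2 to 7 for the 12 lower groups, 0 to 6 for the Polygalae slope, 1 to 2 for the Aucklandiae slope and 1 to 3 for Polygalae against Aucklandiae. The summed AKR1C change with Wortmannin ranged from -0.1253 to -0.0778 and was lost without Vehicle replicate 1 (-0.10) or 2 (-0.09) and without Wortmannin replicate 2 (-0.0778). The lowest count of any of the 9 genes in a library was 2024, and the effect of depth on the precision was not tested.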
